A study of Mus musculus with 42 samples.

Results

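Microglia, the resident macrophages of the brain, were compared between APP/PS1 and wild-type (WT) mice at 6 months of age, using all 9 of the 42 deposited libraries that were made at this age. Each library was RNA from up to 400 sorted CD11b+ and CD45+ cells, fixed with formaldehyde and divided by antibody staining for Ki67, a nuclear protein of cycling cells, into Ki67+ (proliferating) and Ki67- (non-proliferating) microglia. The 4 groups were APP/PS1 Ki67+ (2 libraries), APP/PS1 Ki67- (2 libraries), WT Ki67+ (2 libraries) and WT Ki67- (3 libraries), all from male C57BL/6 mice, with WT littermates as controls and no further treatment named in the labels. APP/PS1 mice carry a mutant amyloid precursor protein transgene and a further mutant transgene of familial Alzheimer disease. Both are under a prion promoter, which is active largely outside microglia, mainly in neurons. The labels do not tie Ki67+ and Ki67- libraries to individual mice, and nothing says that the libraries of a group came from separate animals, so the p-values measure the spread between libraries, which may in part be technical.

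Microglia in a healthy brain keep a homeostatic programme of surface receptors and transcription factors such as Cx3cr1, P2ry12 and Irf8. Near amyloid plaques they take up a disease-associated programme of lysosomal proteases, lipid-handling proteins and phagocytic receptors, and part of this programme needs the lipid receptor Trem2 and its signalling adaptor Tyrobp. The purpose of the comparison was to ask how the amyloid model altered microglia at an age of early plaque deposition, and whether proliferating and non-proliferating cells showed the same difference.

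Levels are given on the log2-like scale of the deposited table, in which a difference of 1 is close to a doubling for abundant transcripts and understates the change of scarce ones. A gene was tested where its mean reached 7 in any of the 4 groups, which held for 13363 of 19151. The difference between genotypes was taken in each Ki67 state and then averaged with equal weight, so that Ki67 state acted as a block. It was tested with limma at a false discovery rate (FDR) of 0.05 after Benjamini-Hochberg adjustment over all tested genes, and every adjusted p below is of this kind.

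The 9 libraries had similar medians over all tested genes, between 8.05 and 8.13, and the depth of each library could not be read from the deposited values. The WT Ki67+ pair stood apart from the other libraries before any gene was tested. The mean level of 30 homeostatic microglial genes was 11.50 and 11.47 in these 2 libraries, and it lay between 12.53 and 12.82 in the other 7. At 4 and 12 months the WT Ki67+ group means of this list were 12.70 and 12.35. Levels under 6 were found for 470 and 716 tested genes in the WT Ki67+ pair and for 59 to 230 in each of the other 7 libraries. The defining microglial genes were nevertheless abundant in every group, with mean Cx3cr1 levels of 12.35 in WT Ki67+, 14.30 in APP/PS1 Ki67+ and 14.51 and 14.50 in WT and APP/PS1 Ki67- microglia. Whether the low values of the WT Ki67+ pair come from the mice, the sort or the library was not tested, so results of Ki67+ microglia are also given against the 9 WT Ki67+ libraries of 4 and 12 months, called the combined reference below. It differs in age and was chosen after the data were seen.

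**Figure D1:**
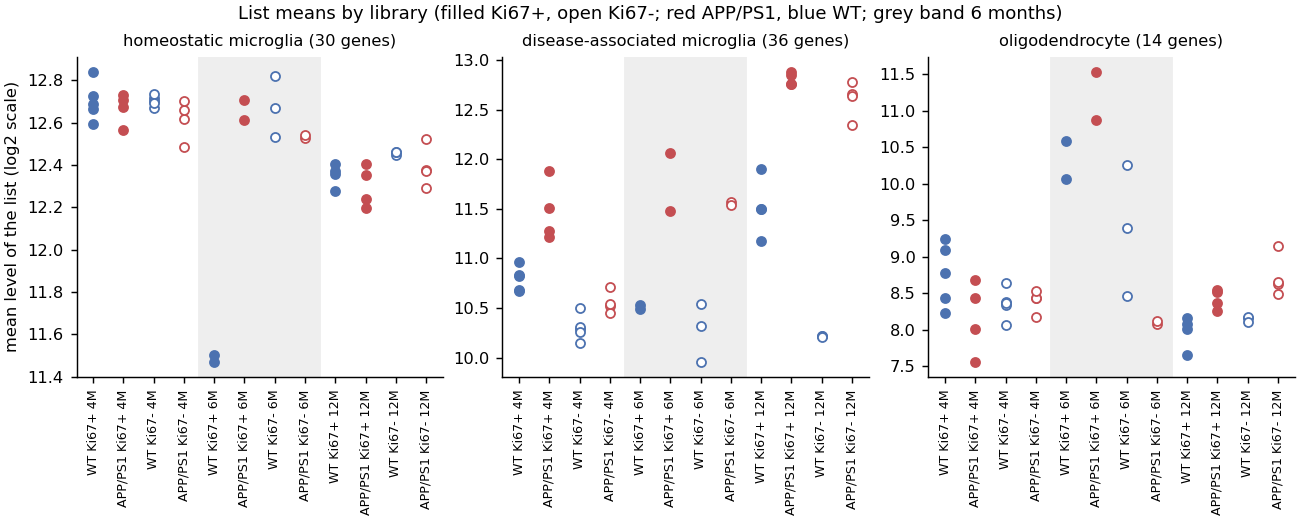
Mean level (y axis, log2 scale) of the homeostatic, disease-associated and oligodendrocyte gene lists in each of the 42 libraries, by group (x axis), with filled points for Ki67+, open points for Ki67-, red for APP/PS1 and blue for WT. At 6 months (grey band) the 2 WT Ki67+ libraries have homeostatic means of 11.50 and 11.47, below every other library, and all 4 APP/PS1 libraries lie above all 5 WT libraries in the disease-associated list.

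In the 6-month average over both Ki67 states, APP/PS1 microglia had 497 genes above and 166 below WT levels, which are 3.72% and 1.24% of the tested genes. The lowest p-values among genes with libraries apart in both states were those of Cst7, Lpl, Ctsd, Syngr1 and Baiap2l2, of which Cst7 and Lpl are well known markers of microglia near plaques. Tested within Ki67+ libraries, 1045 genes rose (7.82%) and 447 fell (3.35%), counts that dropped to 273 and 61 without APP/PS1 Ki67+ replicate 1 and to 363 and 126 without WT Ki67+ replicate 2. Within Ki67- libraries, 8 rose (0.0599%) and 2 fell (0.015%), while 1029 (7.7%) had an unadjusted p under 0.05. With the additive form of the block, genotype and Ki67 state fitted to the 9 libraries alone, 17 genes were higher and 5 lower on average. This form places a difference between the states in the residual. The counts also rested on single libraries: they were 130 higher and 27 lower without APP/PS1 Ki67+ replicate 1 and 174 and 40 without WT Ki67+ replicate 2. They were 322 and 53 without APP/PS1 Ki67+ replicate 2, 276 and 71 or 287 and 77 without APP/PS1 Ki67- replicate 1 or 2, and 413 and 100 without WT Ki67- replicate 2.

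The 2 Ki67 states agreed in part. Of the 497 higher genes, 5 were called in each state, 199 more (40.0%) moved the same way with APP/PS1 and WT libraries fully apart in both states, 211 had the same sign with overlapping libraries in 1 or both states, and 82 (16.5%) had opposite signs. Among all tested genes, libraries were apart in both states with APP/PS1 higher for 4.59% and with APP/PS1 lower for 3.82%. The called genes were selected on the average of both states, so shared sign and separation among them are in part built in by the call. The higher genes had a median difference of 1.72 in Ki67+ and 0.40 in Ki67- microglia, and 162 of them also differed between the states by the interaction test. Of the 166 lower genes, 0 were called in each state, 91 were apart in both, 64 had the same sign with overlap and 11 had opposite signs, with medians of -1.39 and -0.56. Of the 1045 genes called higher in Ki67+ microglia, 54.4% were also above 0 in Ki67- microglia, against 48.2% of all tested genes. Over all tested genes the differences of the 2 states had a Pearson r of 0.086 (13363 genes, which share libraries and are not independent replicates).

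**Figure D2:**
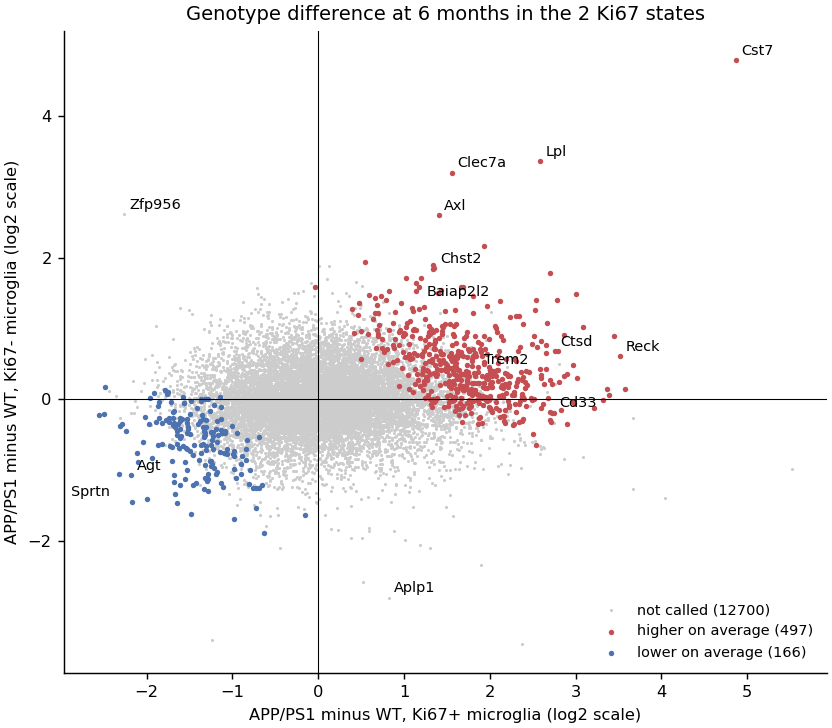
Difference between APP/PS1 and WT at 6 months for each tested gene in Ki67+ (x axis) and Ki67- microglia (y axis), both on the log2 scale, with red for the 497 genes higher and blue for the 166 lower in the average of both states. Cst7, Lpl, Axl and Clec7a lie high on both axes, most other red points extend along the Ki67+ axis, and Zfp956 and Aplp1 have opposite signs in the 2 states.

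The genes called in each Ki67 state were Cst7, Lpl, Baiap2l2, Axl and Chst2. Cst7 encodes cystatin F, an inhibitor of lysosomal cysteine proteases. Its level was 6.80 and 6.62 in WT Ki67+, 12.08 and 11.08 in APP/PS1 Ki67+, 6.69, 7.51 and 7.01 in WT Ki67- and 11.85 and 11.86 in APP/PS1 Ki67- libraries. Every APP/PS1 library was thus far above every WT library, and the average difference of 4.83 ± 0.49 (SE; adjusted p = 2.07e-06) was the highest among the called genes named here. It was 4.87 ± 0.73 in Ki67+ and 4.78 ± 0.66 in Ki67- microglia. The gene (ENSMUSG00000068129.5) lies on chr2:150570415-150578944 of GRCm38, on the plus strand.

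Lpl encodes lipoprotein lipase, which releases fatty acids from lipoproteins. The gene (chr8:68880491-68907448) was at 8.20 and 7.43 in WT Ki67+, 10.79 and 10.02 in APP/PS1 Ki67+, 7.28, 8.27 and 8.08 in WT Ki67- and 11.48 and 11.00 in APP/PS1 Ki67- libraries. The groups did not overlap in either state, and the average difference was 2.98 ± 0.33 (adjusted p = 8.04e-06). Axl, a receptor tyrosine kinase that binds apoptotic cells through the bridging ligand Gas6, was at 8.64 and 8.52 in WT Ki67+ and 10.29 and 9.67 in APP/PS1 Ki67+ libraries. In Ki67- libraries it was at 8.31, 8.34 and 8.07 in WT and 10.99 and 10.69 in APP/PS1. Its difference was 1.40 ± 0.45 (adjusted p = 0.0411) in Ki67+ and 2.60 ± 0.41 (adjusted p = 0.00171) in Ki67- microglia, and these 2 differences were not distinguished by the interaction test (adjusted p = 0.308).

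Chst2, which encodes a sulfotransferase that modifies N-acetylglucosamine on glycans, was at 7.54 and 6.73 in WT Ki67+, 8.82 and 8.15 in APP/PS1 Ki67+, 7.49, 7.50 and 7.46 in WT Ki67- and 9.35 and 9.31 in APP/PS1 Ki67- libraries. Its average difference was 1.60 ± 0.26 (adjusted p = 0.000626). Baiap2l2, a membrane-bending protein of the BAR domain family, was at 6.89 and 6.76, then 8.09 and 7.96, in WT and APP/PS1 Ki67+ libraries. It was at 6.35, 6.53 and 6.44, then 8.02 and 8.29, in WT and APP/PS1 Ki67- libraries, which gave an average difference of 1.46 ± 0.18 (adjusted p = 2.18e-05). All 5 genes kept their call in the average whichever of the 9 libraries was left out. With the combined reference, the Ki67+ difference was still called for Cst7 (1.93 ± 0.57, adjusted p = 0.0168) and Baiap2l2 (1.13 ± 0.21, adjusted p = 0.000439). It was 0.94 for Lpl, 0.66 for Axl and 0.30 for Chst2 (adjusted p = 0.0837, 0.192 and 0.521).

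**Figure D3:**
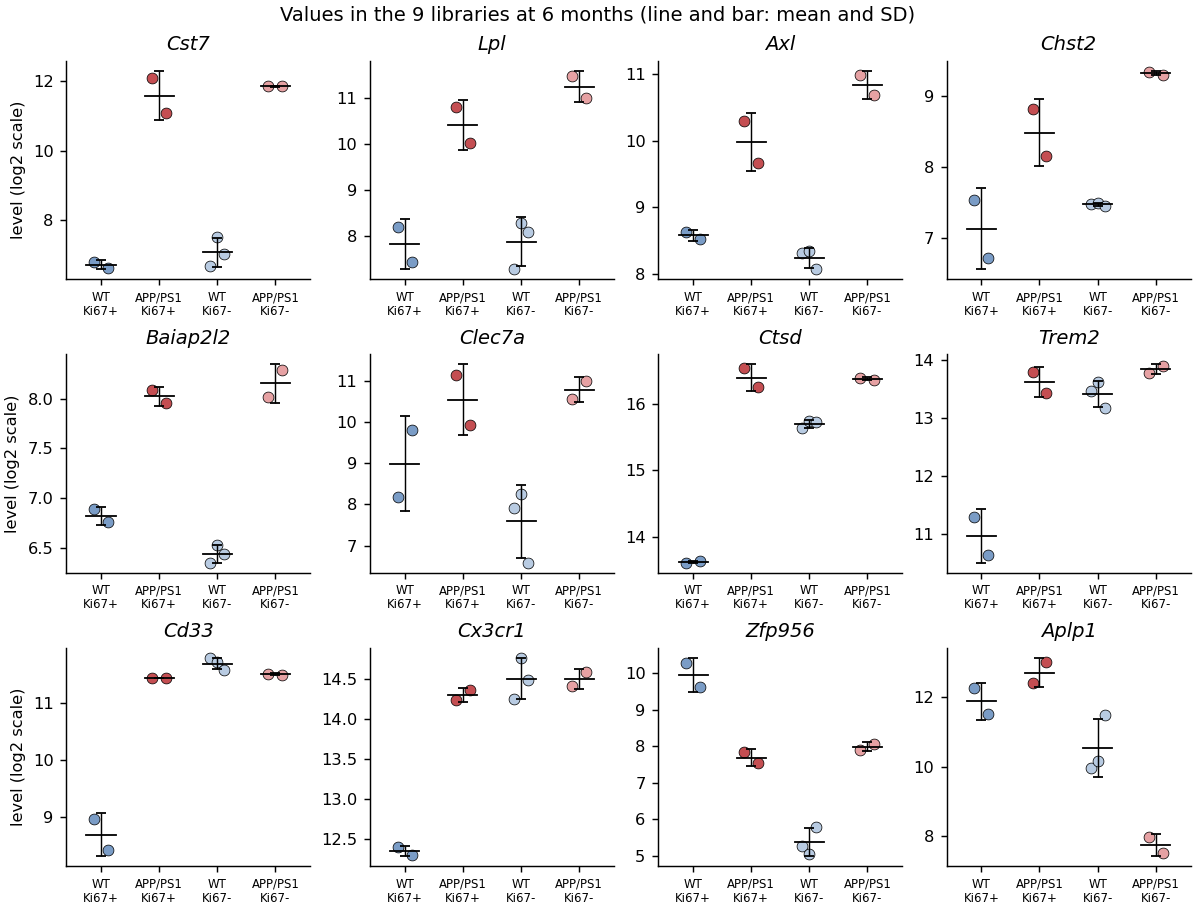
Level (y axis, log2 scale) of 12 genes in the 9 libraries at 6 months, with 1 point per library, the group mean as a line and the SD as a bar (2 libraries per group, 3 for WT Ki67-). APP/PS1 libraries are above WT in both states for Cst7, Lpl, Axl, Chst2, Baiap2l2 and Clec7a, while for Trem2, Cd33 and Cx3cr1 the WT Ki67+ pair is low and the other 3 groups are close together.

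The promoter letters of 4 of these microglial genes are shown because Cst7 and Axl were higher in both states, whereas Trem2 and Cd33 differed mainly between Ki67+ libraries. Each is the 250 bases before the RefSeq start (GRCm38.p6), read 5′ to 3′ on the strand of the gene, and capitals mark GAGGAA, core letters recognised by the myeloid transcription factor PU.1, or its reverse complement TTCCTC.
Cst7, chr2:150570165-150570414, plus strand: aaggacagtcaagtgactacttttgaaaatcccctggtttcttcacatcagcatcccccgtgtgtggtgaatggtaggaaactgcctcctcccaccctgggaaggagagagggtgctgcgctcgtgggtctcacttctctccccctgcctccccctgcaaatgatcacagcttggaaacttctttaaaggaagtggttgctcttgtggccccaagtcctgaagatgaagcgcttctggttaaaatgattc
Axl, chr7:25788734-25788983, minus strand: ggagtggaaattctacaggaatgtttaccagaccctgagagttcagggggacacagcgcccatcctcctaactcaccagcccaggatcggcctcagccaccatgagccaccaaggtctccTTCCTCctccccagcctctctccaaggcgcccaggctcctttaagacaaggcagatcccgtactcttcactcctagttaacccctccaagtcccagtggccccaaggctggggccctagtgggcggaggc
Trem2, chr17:48346151-48346400, plus strand: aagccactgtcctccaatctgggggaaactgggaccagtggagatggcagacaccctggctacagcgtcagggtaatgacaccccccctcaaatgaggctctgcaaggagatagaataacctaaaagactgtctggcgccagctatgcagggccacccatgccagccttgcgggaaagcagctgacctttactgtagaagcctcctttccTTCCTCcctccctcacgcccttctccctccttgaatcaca
Cd33, chr7:43533172-43533421, minus strand: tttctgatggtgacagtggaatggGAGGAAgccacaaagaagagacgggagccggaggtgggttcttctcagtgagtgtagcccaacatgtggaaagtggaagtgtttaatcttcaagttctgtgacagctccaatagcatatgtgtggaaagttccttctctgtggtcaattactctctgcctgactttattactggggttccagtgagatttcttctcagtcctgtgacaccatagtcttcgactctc

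GAGGAA, on either strand, was present in the windows of Axl, Trem2 and Cd33 and not in that of Cst7. The window of Chst2, which was also called in each state and is not shown, held 0 matches. It was present for 26.1% of the 10469 tested genes with a RefSeq promoter, 31.9% of the 392 genes higher on average and 24% of the 129 genes lower on average. The E-box letters CACGTG, bound by lysosomal regulators of the MiT family, were present for 9.66% of all tested genes, 10.7% of the higher and 13.2% of the lower genes, and the AP-1 letters TGANTCA for 5.40%, 3.83% and 3.88%. These shares are descriptions of letters in a fixed window, and the motifs were chosen after the calls were known. Only exact matches were counted, so a window without GAGGAA is not shown to lack a PU.1 site.

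The other genes leading the average were also higher in APP/PS1 in both states, but with most of the difference in Ki67+ microglia. Ctsd, the lysosomal aspartic protease cathepsin D, was at 13.62 and 13.64 in WT Ki67+, 16.53 and 16.25 in APP/PS1 Ki67+, 15.63, 15.74 and 15.73 in WT Ki67- and 16.39 and 16.36 in APP/PS1 Ki67- libraries. The WT Ki67+ pair was the lowest by far, and the difference of 2.76 ± 0.29 in Ki67+ exceeded that of 0.68 ± 0.27 in Ki67- microglia by 2.09 ± 0.40 (interaction, adjusted p = 0.0048). Trem2 was at 11.29 and 10.63 in WT Ki67+, 13.80 and 13.44 in APP/PS1 Ki67+, 13.47, 13.61 and 13.17 in WT Ki67- and 13.78 and 13.90 in APP/PS1 Ki67- libraries. Its difference was 2.65 ± 0.30 in Ki67+ and 0.42 ± 0.27 in Ki67- microglia, and that of its adaptor Tyrobp was 2.66 ± 0.35 and 0.77 ± 0.32. Syngr1, a vesicle protein, Lgals3bp, a secreted galectin-binding glycoprotein, Reck, an inhibitor of matrix metalloproteinases, and Il4i1, a secreted amino acid oxidase, had average differences of 1.89, 2.09, 2.07 and 2.05. For Reck (4.29 and 3.70) and Il4i1 (5.25 and 5.24) the WT Ki67+ levels were under 6, as they were for 115 and 138 of the 497 higher genes in these 2 libraries and for at most 1 in each other library. Relative to the combined reference, the Ki67+ difference was called for Ctsd (0.82), Syngr1 (1.34), Lgals3bp (1.43), Reck (1.57), Trem2 (0.78), Tyrobp (0.91) and Il4i1 (1.87).

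The 35 tested genes of the disease-associated programme showed the clearest group pattern. On average 25 were higher and 0 lower (background 3.72% and 1.24% of tested genes), with a median difference of 1.27 against 0.01 over all tested genes. The count was 21 in Ki67+ and 5 in Ki67- microglia (7.82% and 0.0599% of all tested genes), with medians of 1.45 and 0.96. APP/PS1 libraries lay above WT in both states without overlap for 24 of the 35, as for 4.59% of all tested genes. Besides the genes above, the cathepsins Ctsz, Ctsb and Ctsl rose by 1.30, 1.11 and 1.27, the endosomal protein Cd68 by 1.34, the cholesterol hydroxylase Ch25h by 1.63 and the integrin Itgax by 1.63. Clec7a, the fungal glucan receptor Dectin-1, was at 7.92, 8.26 and 6.58 in WT Ki67- and 10.57 and 11.00 in APP/PS1 Ki67- libraries, a difference of 3.20 ± 0.64 (adjusted p = 0.0389). In Ki67+ libraries it was at 8.17 and 9.81 in WT and 11.15 and 9.94 in APP/PS1, which were only just apart (1.56 ± 0.70, adjusted p = 0.154). Apoe, the main lipid carrier of the brain, did not pass the test on average (0.95 ± 0.31, adjusted p = 0.0673). It was at 15.85 and 15.92 in WT and 16.12 and 15.66 in APP/PS1 Ki67+ libraries, against 14.66, 14.16 and 13.34 in WT and 15.81 and 16.07 in APP/PS1 Ki67- libraries. Spp1, Fabp5, Cd9 and Fth1 also did not pass, with average differences of 0.29, 0.16, 0.38 and -0.14. Under the combined reference 21 of the 35 members were higher on average and 12 in Ki67+ microglia, where 10.5% of all tested genes were called higher and 9.36% lower. Without APP/PS1 Ki67+ replicate 1 the count on average was 15, and in the additive fit to the 9 libraries it was 6. Among the genes just named Itgax lost its call in 3 and Ctsl in 1 of the 9 fits that left out a library. The list was chosen with earlier results of these data known, so its direction is not independent evidence.

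Of the 30 homeostatic genes, 20 were higher in Ki67+ microglia, where 7.82% of all tested genes were called higher, and 0 were called in Ki67- microglia, where 0.0599% of all tested genes were. On average 14 were higher and 0 lower (3.72% and 1.24% of all tested genes), with a median of 0.61. The median was 1.23 in Ki67+ and -0.11 in Ki67- microglia. The interaction was called for 15 of the 30, all with the larger difference in Ki67+ microglia, as it was for 2.63% of all tested genes. Cx3cr1, the fractalkine receptor, was at 12.39 and 12.30 in WT Ki67+, 14.24 and 14.36 in APP/PS1 Ki67+, 14.26, 14.77 and 14.49 in WT Ki67- and 14.41 and 14.59 in APP/PS1 Ki67- libraries. The WT Ki67+ pair lay below the other 3 groups, with a difference of 1.95 ± 0.28 (adjusted p = 4.86e-05) in Ki67+ microglia. The transcription factor Irf8, the lectin Siglech, the protease Ctss, the growth factor receptor Csf1r and the cytoskeletal protein Aif1 likewise had their lowest levels in the WT Ki67+ pair, with Ki67+ differences of 2.03, 2.23, 2.03, 1.28 and 1.68 and Ki67- differences of 0.17, 0.23, 0.24, 0.07 and -0.33. When the combined reference was used, 3 members were higher and 1 lower in Ki67+ microglia, against 10.5% and 9.36% of all tested genes. The median Ki67+ difference was then 0.12, and 0 of 30 were called in the average. In the same average 417 of the 13363 genes were higher (3.12%) and 361 lower (2.7%). What in that reference ended the 14 calls (its age, its number of libraries or the absence of the 6-month pair) was not tested. The additive fit to the 9 libraries also gave 0. The count fell to between 5 and 9 when any of 7 libraries was left out, all but WT Ki67+ replicate 1 and WT Ki67- replicate 2. On average Csf1r lost its call in 3 of these 9 fits and Aif1 in 7.

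**Figure D4:**
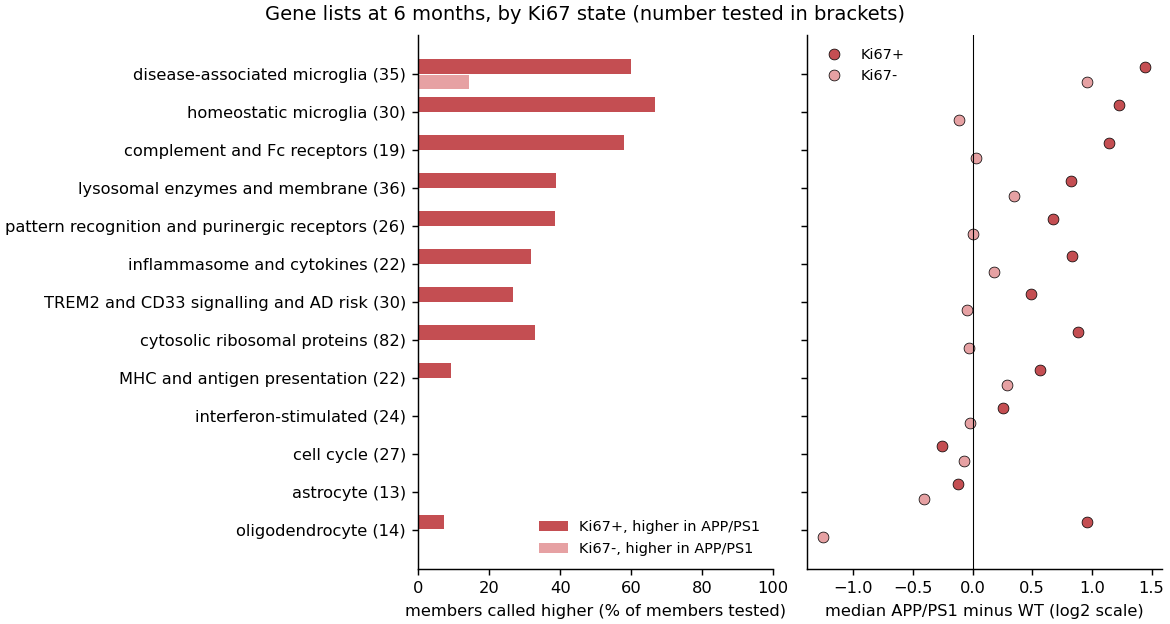
Left, share of the tested members of 13 gene lists called higher in APP/PS1 (x axis, percent) in Ki67+ (dark) and Ki67- microglia (light); right, median difference between APP/PS1 and WT of the same members (x axis, log2 scale). The disease-associated genes have 5 of 35 members called in Ki67- microglia, and the homeostatic genes have 20 of 30 called in Ki67+ and 0 in Ki67- microglia.

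The other immune lists are to be read against the shares of all tested genes called higher, 3.72% on average, 7.82% in Ki67+ and 0.0599% in Ki67- microglia. Of 36 lysosomal enzymes and membrane proteins, 15 were higher and 1 was lower on average (median 0.65), 14 were higher in Ki67+ and 0 in Ki67- microglia, where the median was 0.35. Without APP/PS1 Ki67+ replicate 1 the 15 became 7, and without WT Ki67+ replicate 1, WT Ki67- replicate 3 or APP/PS1 Ki67- replicate 2 it became 9, and in the additive fit it was 0. The lower gene was Tfeb (-0.91, adjusted p = 0.0344), a transcription factor that drives lysosomal genes, while Cd68, Ctsd and Grn, the progranulin gene (1.13), were higher. Of 15 tested subunits of the lysosomal proton pump, 1 was higher on average, Atp6v1a (0.85, adjusted p = 0.0253). Tfeb and Atp6v1a each lost the call in 6 of the 9 fits that left out a library. Of 19 complement components and Fc receptors, 9 were higher on average and 11 in Ki67+ microglia, among them the complement subunit C1qb (1.96 in Ki67+, 0.03 in Ki67-), the integrin Itgam (1.92 and 0.18) and the Fc adaptor Fcer1g (1.48 and 0.40). Of 30 genes of Trem2 and Cd33 signalling and of risk for Alzheimer disease, 6 were higher on average and 8 in Ki67+ microglia. The Ki67+ counts under the combined reference were 10 higher and 1 lower lysosomal genes, 0 higher and 2 lower complement and Fc receptor genes, and 6 higher and 2 lower signalling and risk genes. Of all tested genes, 10.5% were higher and 9.36% lower in this comparison.

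Of 26 pattern recognition and purinergic receptors, 7 were higher on average and 10 in Ki67+ microglia, among them the lipopolysaccharide co-receptor Cd14 (2.60 in Ki67+, 0.35 in Ki67-) and the Toll-like receptor partners Cd180 (2.09 and 0.61) and Ly86 (1.85 and 0.08). Of 22 inflammasome and cytokine genes, 5 were higher and 1 lower on average. The chemokines Cxcl16 and Ccl3 rose by 1.40 and 1.20, Tnf by 0.99 and Il1b, the precursor of interleukin 1 beta, by 1.74 (adjusted p = 0.0277), and the lower gene was the receptor adaptor Myd88 (-0.81 in Ki67+ and -1.19 in Ki67-, adjusted p = 0.0321 on average). In the 9 fits that left out a library, Il1b and Tnf lost their calls in 5, Ccl3 in 3 and Myd88 in 6, with adjusted p of up to 0.171, 0.141, 0.138 and 0.187. Il1b was at 7.03 and 8.15 in WT Ki67+, 10.46 and 9.34 in APP/PS1 Ki67+, 10.82, 10.13 and 8.73 in WT Ki67- and 11.31 and 10.84 in APP/PS1 Ki67- libraries, so its groups were apart in both states but close in Ki67- microglia. The inflammasome sensor Nlrp3 (0.43, adjusted p = 0.379), its adaptor Pycard (0.52, adjusted p = 0.273) and the interferon regulatory factor Irf1 (0.43, adjusted p = 0.34) did not pass on average, and Pycard passed in Ki67+ microglia (1.36, adjusted p = 0.0236). The combined reference gave 0 higher and 4 lower cytokine genes in Ki67+ microglia, against 10.5% and 9.36% of all tested genes. It gave 3 higher and 2 lower receptor genes there. On average it gave 2 higher and 0 lower receptor genes, against 3.12% and 2.7% of all tested genes. Tnf was at -0.24 in the average with that reference.

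Of 24 interferon-stimulated genes, 0 were called on average, in either state or by the interaction, with medians of 0.25 in Ki67+ and -0.02 in Ki67- microglia. The combined reference called 1 of them in Ki67+ microglia, Ifit2, which was lower (-1.77, adjusted p = 0.00589), where 9.36% of all tested genes were lower. The counts that follow are again to be read against 3.72% higher and 1.24% lower among all tested genes on average. Of 22 genes of antigen presentation, 1 was higher on average, B2m (1.22 ± 0.25, adjusted p = 0.00483), the light chain of class I molecules. H2-D1, a class I heavy chain, was at 0.71 (adjusted p = 0.0877). For these 22 genes the combined reference gave 0 higher and 3 lower on average, against 3.12% and 2.7% of all tested genes. In Ki67+ microglia it gave 0 higher and 8 lower, against 10.5% and 9.36%. Of 28 genes of lipid and cholesterol handling, 2 were higher on average, Lpl and Ch25h. Of 27 cell cycle genes, 0 were called on average, in either state or by the interaction, and the median was -0.28. Mki67, the gene of the sorted protein, was at 8.08 and 7.61 in WT Ki67+, 8.23 and 6.96 in APP/PS1 Ki67+, 7.44, 7.91 and 7.88 in WT Ki67- and 7.34 and 8.31 in APP/PS1 Ki67- libraries, which overlapped throughout. Of 82 cytosolic ribosomal protein genes, which have near-identical copies that can share reads, 9 were higher on average, 27 in Ki67+ and 0 in Ki67- microglia. The shares of all tested genes were 7.82% in Ki67+ and 0.0599% in Ki67- microglia. Against the combined reference 1 ribosomal gene was higher on average (3.12% of all tested genes). In Ki67+ microglia 8 were then higher and 1 lower (10.5% and 9.36%). Of 79 nuclear genes of the respiratory chain, 3 were higher and 2 lower on average, shares close to those of all tested genes. Of 22 immediate early and stress genes, 2 were higher on average, Egr1 (1.13) and Junb (0.90), and each lost the call in 2 of the 9 fits that left out a library. For the immediate early genes the combined reference gave 0 higher and 14 lower in Ki67+ microglia, with Junb at -0.52 on average.

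App and Prnp, which are related to the transgenes, were not called. App was at 10.67 and 10.31 in WT Ki67+, 11.35 and 11.40 in APP/PS1 Ki67+, 9.98, 10.97 and 10.73 in WT Ki67- and 9.93 and 10.71 in APP/PS1 Ki67- libraries (average 0.32, adjusted p = 0.526). The average was 0.43 (adjusted p = 0.428) for Prnp, whose promoter drives the transgenes. Reads were assigned to mouse genes, and the part that came from the transgenes is not known, so these levels do not check the genotype labels directly.

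Among the lower genes with libraries apart in both states those with low p-values included Sprtn, Ppp2cb, Wdr46 and Zkscan5. Sprtn, a protease that repairs DNA-protein crosslinks, was at 9.85 and 10.60 in WT Ki67+, 8.11 and 8.01 in APP/PS1 Ki67+, 7.67, 8.61 and 7.39 in WT Ki67- and 6.08 and 6.81 in APP/PS1 Ki67- libraries. Both states were apart, and the average difference was -1.81 ± 0.31 (adjusted p = 0.00106). Ppp2cb, a catalytic subunit of protein phosphatase 2A, was at 8.92 and 9.65, then 7.69 and 7.55, in WT and APP/PS1 Ki67+ libraries and at 8.54, 10.14 and 8.32, then 7.52 and 7.79, in Ki67- libraries (-1.51 ± 0.28, adjusted p = 0.00217). The nucleolar protein Wdr46, the zinc finger proteins Zkscan5 and Zfp488, the synaptic scaffold Dlgap1, the kinase Mapk6, Fam222a and the angiotensin precursor Agt had average differences from -0.89 to -1.69. None of these 9 genes was called in Ki67- microglia alone, where their differences lay between -0.47 and -1.46, and each kept its call in the average whichever library was left out. Measured from the combined reference, the Ki67+ difference was called for Sprtn (-1.02), Zkscan5 (-1.66), Dlgap1 (-1.11), Mapk6 (-1.71) and Agt (-1.53) and was 0.02 for Zfp488. Agt, which astrocytes express in the brain, was at 11.43 and 11.59 in WT and 9.19 and 9.47 in APP/PS1 Ki67+ libraries, while the mean of 14 astrocyte genes was 10.14 and 9.71 in WT and 9.94 and 9.90 in APP/PS1 Ki67+ libraries. In Ki67- libraries, where Agt was at 5.92, 7.78 and 7.06 in WT and 5.86 and 5.83 in APP/PS1, the astrocyte mean was 8.65, 8.85 and 9.17 in WT and 8.02 and 8.48 in APP/PS1, so the genotypes were apart in the same direction. The part of astrocyte RNA in the values of Agt was not tested.

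In Ki67- microglia the 8 higher genes were Cst7, Lpl, Baiap2l2, Axl, Clec7a, Chst2, Zfp956 and a predicted gene, and the 2 lower genes were Aplp1 and Dbndd2. Cst7 and Lpl kept this call whichever library was left out. Axl, Baiap2l2 and Aplp1 lost it in 1 such fit each, and Chst2, Clec7a, Zfp956 and Dbndd2 in 4 or 5. Aplp1, a relative of the amyloid precursor protein, was at 9.96, 10.15 and 11.50 in WT Ki67- and 7.96 and 7.51 in APP/PS1 Ki67- libraries (-2.80 ± 0.42, adjusted p = 0.00114). In Ki67+ libraries it was at 12.27 and 11.52 in WT and 12.42 and 13.02 in APP/PS1 (0.82 ± 0.46, adjusted p = 0.261). Dbndd2, a dysbindin-related protein, was at 9.33, 10.25 and 10.38 in WT and 8.51 and 8.20 in APP/PS1 Ki67- libraries (-1.64 ± 0.31, adjusted p = 0.0191). Both transcripts are also abundant in oligodendrocytes. The mean of 14 oligodendrocyte genes was 9.40, 8.47 and 10.25 in WT Ki67- and 8.08 and 8.12 in APP/PS1 Ki67- libraries, and 10.59 and 10.07 in WT Ki67+ and 10.87 and 11.54 in APP/PS1 Ki67+ libraries. All of these list means are above 8, and the group means at 4 and 12 months lay between 7.98 and 8.76. Of the 14 genes, 1 was higher on average (Pdgfra, 0.99, with WT Ki67+ levels of 5.30 and 4.66), 0 were lower and 4 were called by the interaction, with medians of 0.96 in Ki67+ and -1.25 in Ki67- microglia. The interaction was called with a larger Ki67+ value, as for these 4, in 2.63% of all tested genes. From the combined reference the Ki67+ difference was called higher for 12 of the 14 oligodendrocyte genes and lower for 10 of 13 astrocyte genes. Among all tested genes 10.5% were called higher and 9.36% lower in this comparison. The part of oligodendrocyte RNA in the values of Aplp1 and Dbndd2 was not tested, and in sorted bulk RNA more cells of a type cannot be told apart from more RNA per cell.

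Few markers of other cells were called on average, where 3.72% of all tested genes were higher and 1.24% lower. Of 13 astrocyte, 8 neuronal, 10 border-associated macrophage, 3 lymphocyte and 3 erythroid genes tested, 0 were called on average. Of 9 monocyte and granulocyte genes 1 was lower on average, the chemokine receptor Ccr2 (-1.41, adjusted p = 0.026), and of 10 endothelial and mural genes 1 was higher, Pecam1 (0.82, adjusted p = 0.0401). Ccr2 lost its call in 5 of the 9 fits that left out a library (adjusted p of up to 0.153), and Pecam1 lost it in all 9 (adjusted p from 0.0503 to 0.165). In Ki67+ microglia the macrophage genes Pf4 and Mrc1 were lower, by -2.14 and -1.70, and Stab1 was higher, by 1.44. The astrocyte list mean lay between 9.71 and 10.14 in Ki67+ and between 8.02 and 9.17 in Ki67- libraries.

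The test of whether the genotype difference depended on Ki67 state called 351 genes with a larger value in Ki67+ (2.63%) and 80 with a larger value in Ki67- microglia (0.599%). The first group was led by Alk, a receptor tyrosine kinase, Polh, a translesion DNA polymerase, Gprin3, Epb41l4aos and Cd33. Cd33, a receptor for sialic acids, was at 8.95 and 8.42 in WT Ki67+, 11.43 and 11.43 in APP/PS1 Ki67+, 11.78, 11.71 and 11.58 in WT Ki67- and 11.51 and 11.49 in APP/PS1 Ki67- libraries. Its difference was 2.74 ± 0.32 in Ki67+ and -0.19 ± 0.29 in Ki67- microglia, and the interaction was 2.93 ± 0.43 (adjusted p = 0.000552). The pattern of a low WT Ki67+ pair and 3 similar groups held for Alk (4.47 and 4.13 against 6.67 to 7.60 elsewhere) and for Polh (4.85 and 3.94 against 7.05 to 7.70). Epb41l4aos lies opposite to a coding gene, and the library preparation kept no strand, so its reads cannot be told apart from those of its partner. From the combined reference, the Ki67+ difference of Cd33 was 0.98 ± 0.25 (adjusted p = 0.00646) and that of Alk 1.75 ± 0.23 (adjusted p = 5.32e-06), and the interaction called 478 genes higher (3.58%) and 303 lower (2.27%).

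The second group was led by Zfp956, a zinc finger gene with opposite changes in the 2 states. It was at 10.28 and 9.62 in WT Ki67+, 7.85 and 7.53 in APP/PS1 Ki67+, 5.27, 5.06 and 5.80 in WT Ki67- and 7.91 and 8.07 in APP/PS1 Ki67- libraries. The WT groups differed strongly between Ki67 states and the APP/PS1 groups lay between them, with differences of -2.26 ± 0.53 and 2.61 ± 0.48 and an interaction of -4.87 ± 0.72 (adjusted p = 0.000552). Mad2l1bp, which silences the spindle checkpoint, the formin Fmn1 and the proteasome deubiquitinase Psmd14 were also lower in Ki67+ (-1.90, -1.61 and -1.10), and their Ki67- differences of 1.03, 1.29 and 0.98 did not pass. Sptssa, a subunit of the first enzyme of sphingolipid synthesis, was at 11.79 and 12.10 in WT and 10.15 and 10.18 in APP/PS1 Ki67+ libraries and between 8.10 and 8.46 in all 5 Ki67- libraries. The interaction counts fell to 26 and 3 without APP/PS1 Ki67+ replicate 1 and to 65 and 6 without WT Ki67+ replicate 2. They were 112 and 31 or 140 and 23 without APP/PS1 Ki67- replicate 1 or 2, and 237 and 28 without APP/PS1 Ki67+ replicate 2.

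The same average was taken at the other ages, each against its own WT libraries, and the differences between ages were tested directly. At 4 months 4 genes were higher (0.0299%) and 2 lower (0.015%), while 897 (6.71%) had an unadjusted p under 0.05. At 12 months 1291 were higher (9.66%) and 1123 lower (8.4%), with more libraries than at 6 months. From 4 to 6 months the difference grew for 163 genes (1.22%) and fell for 31 (0.232%), and from 6 to 12 months it grew for 99 (0.741%) and fell for 213 (1.59%). Of the 35 disease-associated genes 4, 25 and 35 were higher at 4, 6 and 12 months, with medians of 0.30, 1.27 and 1.61. The difference grew for 12 of them from 4 to 6 months and for 4 from 6 to 12 months.

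Lpl had average differences of 1.32, 2.98 and 3.18 at the 3 ages and Axl of 0.15, 2.00 and 2.25, and for both the step from 4 to 6 months was called. Cst7 was at 2.66 at 4 months, 4.83 at 6 and 4.46 at 12 months, and no step was called. Chst2 was at 0.40, 1.60 and 0.31, with a called fall of -1.30 from 6 to 12 months. Reck (-0.07, 2.07 and -0.39), Cd33 (-0.26, 1.28 and 0.25), Polh (-0.01, 1.28 and -0.10) and Alk (0.13, 1.34 and 0.19) had a called difference at 6 months that differed from both other ages. In these 4 genes the WT Ki67+ pair at 6 months held the low values given above. The same pair was also the lowest for Ctsd and Trem2, and no step between ages was tested against the combined reference. Without APP/PS1 Ki67+ replicate 1 the step from 4 to 6 months was called for 6 genes upward and 2 downward, and without WT Ki67+ replicate 2 for 33 and 5. Without APP/PS1 Ki67+ replicate 2 it was called for 92 and 8 genes, without APP/PS1 Ki67- replicate 1 or 2 for 55 and 15 or 41 and 10, and without WT Ki67- replicate 1 or 3 for 98 or 75 upward. The step from 6 to 12 months was called for 24 genes upward and 40 downward without WT Ki67+ replicate 2, 29 and 48 or 28 and 72 without APP/PS1 Ki67+ replicate 1 or 2, and 56 and 111 or 26 and 54 without APP/PS1 Ki67- replicate 1 or 2.

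**Figure D5:**
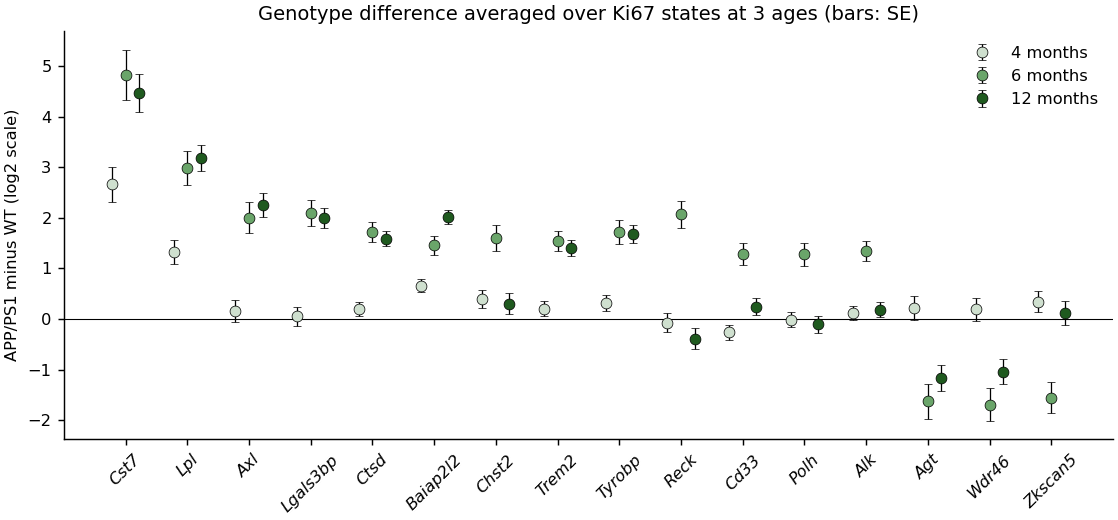
Difference between APP/PS1 and WT averaged over both Ki67 states (y axis, log2 scale, with SE bars) for 16 genes (x axis) at 4, 6 and 12 months in pale, mid and dark green. Lpl, Axl, Ctsd and Trem2 are higher at 6 and 12 than at 4 months, and Reck, Cd33, Polh and Alk are highest at 6 months.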

How the data were processed

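RNA of up to 400 sorted microglia per library was sequenced in 42 libraries, 9 of them at 6 months. Per the labels and the methods of the study, the authors quantified reads of 75 bases with kallisto 0.43.1 on GRCm38 after bcl2fastq 2.20, normalised with DESeq2 and removed 10 surrogate variables. The deposited values, recorded here as a score, are on a log2-like scale whose transform is not given in the sources used here, so they are not counts and depth is unknown. Over genes, the rank of the 42 columns is 32 and that of deviations from group means is 20.

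Cell means over 12 groups were fitted with limma 3.58.1 in R 4.3.3 to all libraries, with 20 residual degrees of freedom (10 counted as spent, prior 7.85). Standard errors leave out the uncertainty of the removed variables, which may overlap the groups. Genes under a mean of 7 in all 4 groups, 5788 in number, were not tested. The fit was run on simulated data with known shifts, where the mean estimate was checked against the shift, and the rate of false calls is not given here. Symbols altered on export were restored for 919 genes, and positions are from GENCODE M21.

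Members and lists were chosen with earlier results of these data known. Named genes are up to 10 per direction by p, taken from called genes with libraries apart in both states, all genes called in Ki67- microglia, up to 5 per sign of the interaction, up to 4 per list, and genes the study names at 6 months; predicted genes were counted only, and some genes are not reported here. Other named genes, the motifs and the combined reference (9 WT Ki67+ libraries of 4 and 12 months) were chosen after values were seen. Alternatives were all genes, 9 libraries alone, an additive fit, removed directions not counted, trend and robust moderation, median subtraction and leaving out each library. Figures were drawn with matplotlib 3.10.9.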

Additional observations from a re-analysis of the deposited data

Results flagged for a closer look

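The results below were set apart because the genotype difference was tested to differ between the Ki67 states or between ages. For the states, 431 genes were called in all, and for the ages, 194 genes from 4 to 6 months and 312 from 6 to 12 months. No group at 6 months held enough libraries for a check of single outlying values.

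The values in this paragraph are interactions, the signed difference in Ki67+ minus that in Ki67- microglia, and do not give the size of either difference. The interaction was positive for the homeostatic genes Cx3cr1 (1.96), Csf1r (1.21), Aif1 (2.01), Siglech (2.00), Irf8 (1.86) and Ctss (1.79). It was also positive for Trem2 (2.23), Tyrobp (1.89), Cd33 (2.93), Grn (1.33) and Ctsd (2.09). Among the immune genes it was positive for Itgam (1.74), C1qb (1.93), Cd14 (2.26), Ly86 (1.78), Il4i1 (2.07) and Stab1 (2.05). The same held for Syngr1 (1.96), Reck (2.92), Alk (2.99), Polh (3.24), Gprin3 (3.33), Epb41l4aos (3.00), Lpcat2 (1.32), Atp5g3 (1.76), Pecam1 (2.13), Pdgfra (1.49) and Aplp1 (3.63). The interaction was negative for Zfp956 (-4.87), Mad2l1bp (-2.93), Fmn1 (-2.90), Psmd14 (-2.08) and Sptssa (-1.92).

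From 4 to 6 months the average difference grew for Lpl (1.65), Axl (1.85), Ctsd (1.52), Trem2 (1.33), Tyrobp (1.40), Ctsz (1.00), Ctsb (0.997), Cd68 (0.98), Grn (1.01), Ch25h (1.57) and Lgals3bp (2.04). It grew for Cx3cr1 (1.07), Irf8 (1.29), Siglech (1.26), Ctss (1.13), Itgam (1.10), C1qb (1.05), Ly86 (0.98), B2m (1.20), Tnf (1.20), Junb (1.11), Cd33 (1.54), Il4i1 (1.44) and Syngr1 (1.30). It also grew for Reck (2.14), Gprin3 (1.76), Polh (1.29), Alk (1.21) and Atp5g3 (0.90). It fell for the astrocyte genes Slc1a2 (-2.04), Sparcl1 (-1.21) and Agt (-1.84), and for Zkscan5 (-1.90), Wdr46 (-1.88), Ppp2cb (-1.48) and Zfp488 (-1.24). At 6 months the WT Ki67+ pair held the lowest levels of Ctsd, Trem2, Cx3cr1, Irf8, Siglech, Ctss and Cd33. The homeostatic list mean of WT Ki67+ microglia was 11.49 at 6 and 12.70 at 4 months. Whether these steps hold against the combined reference was not tested.

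From 6 to 12 months the average difference fell for Reck (-2.46), Pdgfrb (-1.60), Stab1 (-1.41), Polh (-1.37), Gprin3 (-1.37), Chst2 (-1.30), Alk (-1.15), Cd33 (-1.03) and Lpcat2 (-0.98). It rose for Zkscan5 (1.67), Dbndd2 (1.59), Sprtn (1.49), Ndufa11 (1.23) and Sptssa (0.99).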

How the results depend on the processing

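No paired analysis was possible because the labels give no replicate numbers and tie no Ki67+ library to a Ki67- library. With the removed directions not counted as spent, the average gave 1303 genes higher and 849 lower, Ki67+ microglia 1955 and 1271, Ki67- microglia 131 and 84, the interaction 1090 and 575, the step from 4 to 6 months 764 and 431 and that from 6 to 12 months 702 and 955. With the 9 libraries alone, Ki67- microglia gave 4 and 0, the interaction 136 and 26, and 7 homeostatic and 9 lysosomal members were higher on average. The additive fit gave 17 and 5, with 6 disease-associated, 0 homeostatic and 0 lysosomal members. Trend and robust moderation gave 13 and 4 in Ki67- microglia. Against the combined reference (WT Ki67+ libraries of 4 and 12 months), 361 genes were lower on average, 1251 in Ki67+ microglia and 303 by the interaction, and 0 homeostatic members were higher on average. Against that reference Tnf (-0.24) and Junb (-0.52) changed sign, and Sox10 (-0.57, not called) was called higher (1.01). The causes were not tested. Testing all genes and subtracting library medians kept every one of these counts within 1.5 times.

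Leaving out 1 library gave 130 to 438 genes higher and 27 to 155 lower on average, 273 to 1060 and 61 to 467 in Ki67+, 5 to 8 and 0 to 7 in Ki67- microglia, and 26 to 331 and 3 to 82 by the interaction. It gave 6 to 152 and 2 to 27 for the step from 4 to 6 months and 24 to 98 and 40 to 220 for that from 6 to 12 months. Members higher on average were 15 to 26 disease-associated, 5 to 10 homeostatic and 7 to 14 lysosomal genes. In Ki67+ microglia the lowest counts were 273 and 61 without APP/PS1 Ki67+ replicate 1, 363 and 126 without WT Ki67+ replicate 2, 623 and 123 without APP/PS1 Ki67+ replicate 2, and 739 and 273 without WT Ki67+ replicate 1. Of 85 named calls, 59 held without APP/PS1 Ki67+ replicate 1 and 63 without WT Ki67+ replicate 2, and 0 changed sign. With 2 or 3 libraries a group and unknown depth, a difference that did not pass the test is not shown to be absent.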
